A study of Homo sapiens with 20 samples.

Results

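Semaphorins, and the plexins and neuropilins that receive them, were followed over the conversion of human neural progenitor cells into neurons. The genes were chosen by symbol, with earlier results of these data already known. They were 20 semaphorins, 9 plexins and 2 neuropilins, with 1 record for each symbol. These 31 genes were among 20237 coding gene records and 38369 records in all. Polyadenylated RNA was sequenced from neural progenitor cells made from the human embryonic stem cell line H1, and from their progeny after the mitogen FGF had been withdrawn and the neurotrophin BDNF added. Cells were collected on day 0, still in FGF, then on days 1, 2, 4, 5 and 11 of differentiation and finally on day 18, with 3 cultures a day except day 5, which has 2 because an outlying culture was dropped by the submitters. The base medium changed too after day 0, from a mix of DMEM/F12 and Neurobasal to Neurobasal alone. Cells collected after day 4 had been moved on that day from Matrigel onto poly-D-lysine and laminin. Every comparison of days 5, 11 or 18 with day 4 or earlier therefore also holds a change of surface. All cultures came from 1 cell line, and none of the samples used here stayed in FGF after day 0. From day 0 to day 18, time in culture, medium, surface and differentiation therefore cannot be told apart.

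Semaphorins are guidance cues that share an extracellular sema domain, first known for making growth cones collapse or turn away. Class 3 members are secreted, classes 4, 5 and 6 span the membrane, and the class 7 member SEMA7A is held by a lipid anchor. Plexins are the signalling receptors: their intracellular part is a GTPase-activating domain for small Ras-like GTPases, and its activation weakens adhesion and remodels actin. Most class 3 semaphorins do not bind an A plexin directly but through a neuropilin, NRP1 for SEMA3A and NRP2 for SEMA3F, while SEMA3E binds PLXND1 without one. Class 6 semaphorins bind A plexins on neighbouring cells, class 4 members bind mainly B plexins, SEMA5A and SEMA5B bind A plexins, and SEMA7A binds PLXNC1 and integrins. In the developing nervous system these genes steer axons, position migrating neurons and shape dendrites.

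Levels are given in FPKM, fragments scaled to transcript length and to library size, which allows genes of different length to be compared. The deposited table holds 1 value for each gene and day, in which the authors had pooled that day's cultures. No spread between cultures can therefore be given, no test was possible, and every difference below is a description of pooled values with unknown depth. Changes are differences in log2(FPKM + 0.1), a scale that understates the change of low genes, and "rose" and "fell" are used here only for changes of at least 2-fold on it. The genes counted had a mean over the 7 days of at least 0.1 FPKM, as 30 of the 31 did. As a yardstick for small differences, the change from day 1 to day 2 was taken over all coding records, recentred as explained below. No switch of medium type or surface lies between these adjacent days. The 95th percentile of the absolute change was 0.79 for records with a mean of 0.1 to 1 FPKM, 0.49 from 1 to 10 FPKM and 0.29 at 10 FPKM or more. This yardstick holds real change as well as measurement error.

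The scale of the deposited values moved over the course. The median coding record with a mean of at least 1 FPKM was 0.60 lower on the log2 scale at day 18 than at day 0, which corresponds to 1.51-fold, and the FPKM total over all records went from 413978 to 251156. Changes are therefore also given recentred, that is, relative to that median. As a background for the counts below, 10.6% of the 14107 coding records with a mean of at least 0.1 FPKM rose and 28.2% fell. Recentred, these shares were 19.3% and 12.1%. The cells held the markers of their label: all 6 neural progenitor markers and all 9 neuronal markers examined had a mean of at least 1 FPKM. The summed level of the neuronal markers went from 698 to 1542 FPKM between day 0 and day 18 and that of the progenitor markers from 3789 to 2027 FPKM. Single genes carried these sums. STMN2 made most of the neuronal gain, at 32.3 and 727 FPKM, and of the 9 neuronal markers 6 rose and 1 fell. VIM made most of the progenitor sum, at 2948 and 1493 FPKM, and of the 6 progenitor markers 2 rose (HES5 and PAX6) and 1 fell (NES). Recentred, 3 progenitor markers were past 2-fold higher and 0 lower, with NES at -0.91. The recentred counts of the neuronal markers were 6 higher and 0 lower. The 5 proliferation markers went from 459 to 76.6 FPKM in sum, and each fell on either scaling. Markers of mesenchymal cells were also present at day 0, with a sum of 661 FPKM that went to 58.8 FPKM. Of the 6 tested, 5 fell (background 28.2%), or 4 when recentred (background 12.1%). Among the collagens of that list, COL3A1 was at 238 FPKM and COL1A2 at 33.6 FPKM on day 0, while COL1A1 was listed at 0 on every day, which can be a failed estimate. In these bulk samples, fewer cells of a type and less RNA per cell cannot be told apart.

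Between day 0 and day 18 the make-up of the family changed. Of the 30 genes, 10 rose 2-fold or more against a background of 10.6% of all 14107 coding records, and 5 fell against a background of 28.2%. The genes that rose were SEMA3F, SEMA4A, SEMA5A, all 4 class 6 semaphorins (SEMA6A, SEMA6B, SEMA6C and SEMA6D), PLXNA2, PLXNA4 and PLXNC1. Those that fell were SEMA3A, SEMA3C, SEMA3D, PLXND1 and NRP2. The median change was 0.49 for the 30 genes and -0.52 for all coding records. After recentring, 16 genes were at least 2-fold higher (background 19.3%) and 3 were at least 2-fold lower (SEMA3A, SEMA3C and PLXND1, background 12.1%), with medians of 1.09 and 0.08. SEMA3D and NRP2 were no longer past 2-fold when recentred, and 5 genes (SEMA5B, PLXNA1, PLXNB1, PLXNB2 and NRP1) had a change whose sign depended on the scaling. The summed level of the 31 genes was 442 FPKM at day 0 and 346 FPKM at day 18.

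**Figure D1:**
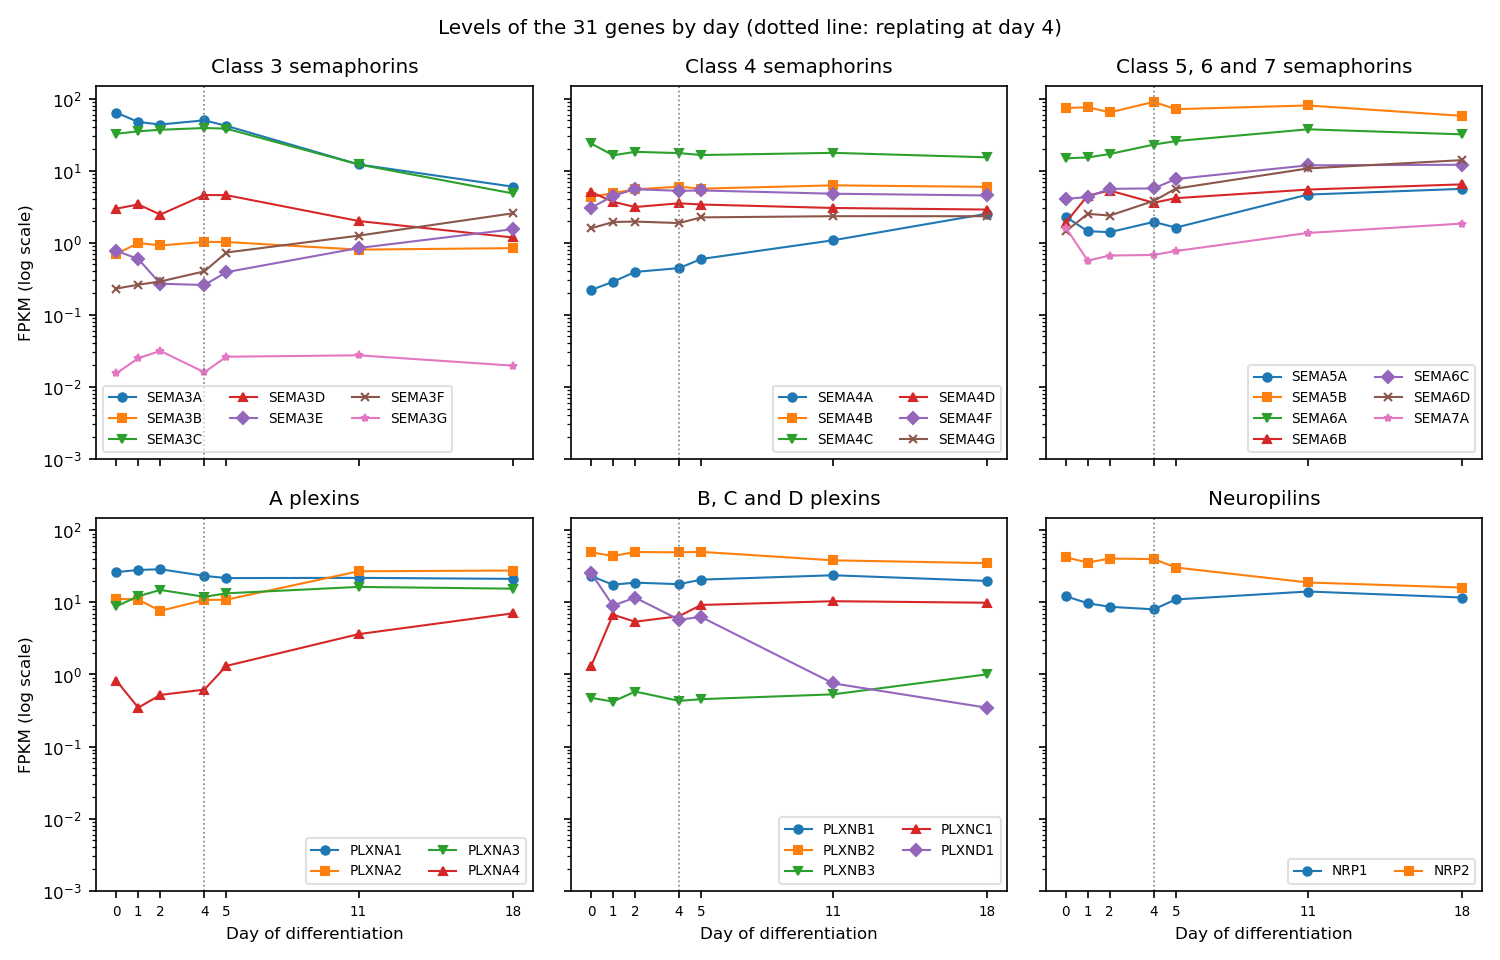
FPKM of each of the 31 genes (log axis) against day of differentiation, in panels by class; each point is 1 pooled value, without error bars, and the dotted line marks the replating at day 4. SEMA3A, SEMA3C and PLXND1 run down after day 5, while SEMA3F, SEMA4A, SEMA6D and PLXNA4 run up, and SEMA5B stays the highest gene of the set from day 0 (74.0 FPKM) to day 18 (57.8 FPKM).

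The secreted class 3 semaphorins were led by a pair that fell together. SEMA3A, the classic collapsin that repels axons through NRP1 and A plexins (chr7:83587665-83824217, hg19, minus strand), stood at 64.1, 47.5, 43.8, 50.1, 42.0, 12.2 and 6.01 FPKM on the 7 days in order. SEMA3C, an attractant for some cortical axons (chr7:80371855-80551675, minus strand), was at 32.5, 35.3, 37.0, 39.2, 38.4, 12.2 and 4.84 FPKM on the same days. SEMA3A was highest on day 0, whereas SEMA3C was highest on day 4, and both kept over 30 FPKM until day 5 before dropping to near-equal levels on day 11. Their changes from day 0 to day 18 were -3.39 for SEMA3A and -2.72 for SEMA3C, or -2.79 and -2.12 recentred. SEMA3D (chr7:84624874-84816171, minus strand) took the values 2.97, 3.40, 2.46, 4.60, 4.58, 2.00 and 1.18 FPKM, a change of -1.26 as deposited and -0.66 recentred.

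The other secreted members were low at first, and SEMA3E and SEMA3F ended higher. SEMA3E, the ligand of PLXND1 (chr7:82993222-83278324, minus strand), ran through 0.774, 0.595, 0.270, 0.259, 0.391, 0.845 and 1.54 FPKM, lowest on days 2 and 4. Its change from day 0 to day 18 was 0.91 as deposited and 1.51 recentred. SEMA3F, the repellent read through NRP2 (chr3:50192848-50226507, plus strand), was at 0.231, 0.262, 0.290, 0.401, 0.732, 1.26 and 2.56 FPKM, higher on each day than on the one before. That is a rise of 3.01, or 3.61 recentred, from a low start. SEMA3B (chr3:50305040-50314570), a neighbour of SEMA3F, held between 0.695 and 1.03 FPKM, with 0.695, 0.995, 0.917, 1.03, 1.02, 0.803 and 0.842 FPKM on the 7 days. SEMA3G, on the same chromosome, stayed between 0.0154 and 0.0315 FPKM and was the only gene of the set that did not reach 1 FPKM on any day. SEMA3A, SEMA3C, SEMA3D and SEMA3E all lie on the minus strand of chromosome 7. SEMA3E ended above its day 0 level, within 2-fold as deposited, while the others ended below theirs.

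These changes altered which secreted cue made up most of the class. SEMA3A and SEMA3C together were 95.4% of the summed class 3 FPKM on day 0 and 63.8% on day 18. SEMA3F went from 0.228% to 15.1% of that sum, and the ratio of SEMA3A to SEMA3F went from 277 to 2.34. A share within the set is not moved by the scaling of the days. The mesenchymal marker sum, given above, was lower on day 18 together with SEMA3A and SEMA3C, and its part in their fall was not tested. SEMA3B and SEMA3F share 100% and 84.7% of their exon bases with antisense lincRNA records, and reads of the partners cannot be told apart where counting does not use strand. The record antisense to SEMA3F was at 0.0149 FPKM on day 0 and 0.159 FPKM on day 18.

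Class 4 semaphorins, transmembrane cues that signal mainly through B plexins, changed less. SEMA4C, the main member and a PLXNB2 ligand, stood at 24.0, 16.4, 18.3, 17.6, 16.5, 17.7 and 15.3 FPKM. Its only step past the yardstick was from day 0 to day 1. SEMA4B was at 4.33, 4.89, 5.51, 6.00, 5.64, 6.27 and 5.97 FPKM. SEMA4D, the PLXNB1 ligand also known as CD100, was at 5.07, 3.71, 3.13, 3.53, 3.40, 3.04 and 2.89 FPKM. SEMA4B ended above its day 0 level and SEMA4D below it, by 0.45 and -0.79, neither past 2-fold. SEMA4F took 3.04, 4.49, 5.54, 5.26, 5.32, 4.80 and 4.53 FPKM. SEMA4G took 1.59, 1.94, 1.97, 1.88, 2.25, 2.34 and 2.33 FPKM. Recentred, the changes of SEMA4B, SEMA4F and SEMA4G were past 2-fold, at 1.05, 1.16 and 1.13, while those of SEMA4C and SEMA4D were -0.04 and -0.19.

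SEMA4A was the exception in its class. It went through 0.221, 0.287, 0.394, 0.445, 0.594, 1.08 and 2.54 FPKM, a rise of 3.04 (3.64 recentred) in which each day was above the one before. SEMA4C shares 99.5% of its exon bases with an antisense lincRNA record at 1.27 FPKM on day 0 and 0.910 FPKM on day 18. SEMA4G shares 15.4% with MRPL43, a mitochondrial ribosomal protein gene on the other strand that was far higher, at 44.5 FPKM on day 0 and 27.5 FPKM on day 18. Reads at these overlaps cannot be assigned by strand.

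Among the class 5 members, SEMA5B was the most abundant gene of the whole set on every day. Its levels were 74.0, 76.3, 64.6, 90.2, 71.5, 80.5 and 57.8 FPKM, and its mean lay at percentile 96.7 of all coding records. The change of SEMA5B from day 0 to day 18 was -0.36 as deposited and 0.24 recentred, the latter inside the recentred yardstick of 0.29 for its level. SEMA5A (chr5:9035138-9546233, minus strand) was at 2.29, 1.45, 1.40, 1.95, 1.62, 4.67 and 5.60 FPKM. Its rise of 1.26 lay almost wholly in the step from day 5 to day 11, where it rose by 1.47.

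All 4 class 6 semaphorins, transmembrane ligands of A plexins that can also signal in reverse through their own cytoplasmic tails, rose from day 0 to day 18 on either scaling. SEMA6A, which acts with PLXNA2 and PLXNA4 in neuron migration and lamination, stood at 14.8, 15.3, 17.1, 23.1, 25.8, 37.6 and 32.0 FPKM, a rise of 1.10. SEMA6D (chr15:47476403-48066419, plus strand) was at 1.44, 2.52, 2.38, 3.81, 5.64, 10.8 and 14.0 FPKM. Its rise was 3.20 as deposited and 3.80 recentred, spread over most steps. With the pseudocount of 0.1 FPKM this was the largest rise of the 30 genes, but the plain ratio of day 18 to day 0 was 9.74 for SEMA6D, 11.5 for SEMA4A and 11.1 for SEMA3F. SEMA6C (chr1:151104165-151119104, minus strand) took 4.07, 4.31, 5.61, 5.68, 7.67, 11.9 and 12.1 FPKM, a rise of 1.55. SEMA6B took 1.90, 4.51, 5.31, 3.59, 4.16, 5.48 and 6.47 FPKM, a rise of 1.71. SEMA6B differed from the others in timing, since its largest step was the first one, from day 0 to day 1 (1.20). The SEMA6A record shares 47.7% of its exon bases with an antisense lincRNA record that moved with it, from 1.78 to 3.47 FPKM, and 3.93% with another that was far more abundant than SEMA6A, at 114 and 81.6 FPKM, a change of -0.49 as deposited and 0.11 recentred.

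SEMA7A, the lipid-anchored member, dipped and returned. It stood at 1.63 FPKM on day 0, fell to 0.566 FPKM on day 1 and was then at 0.664, 0.678, 0.767, 1.37 and 1.85 FPKM. Its change over the whole course was 0.17, and from day 1 to day 18 it was 1.55. An antisense lincRNA record covers 96.8% of its exon bases and followed the same dip, with 0.0584 FPKM on day 0 and 0.0172 FPKM on day 1.

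In the summed semaphorin FPKM, the share of secreted class 3 members shrank and that of membrane-bound class 6 members grew. Class 3 made up 42.3%, 39.2%, 39.1%, 36.9%, 36.6%, 13.6% and 9.42% of that sum on the 7 days. Class 6 made up 9.28%, 11.9%, 14.0%, 13.9%, 18.2%, 30.3% and 35.8%. The order of the classes changed between day 5 and day 11, when class 6 passed class 3. Class 5, nearly all of it SEMA5B, held between 30.5% and 39.3%, and class 4 between 13.4% and 18.6%.

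**Figure D2:**
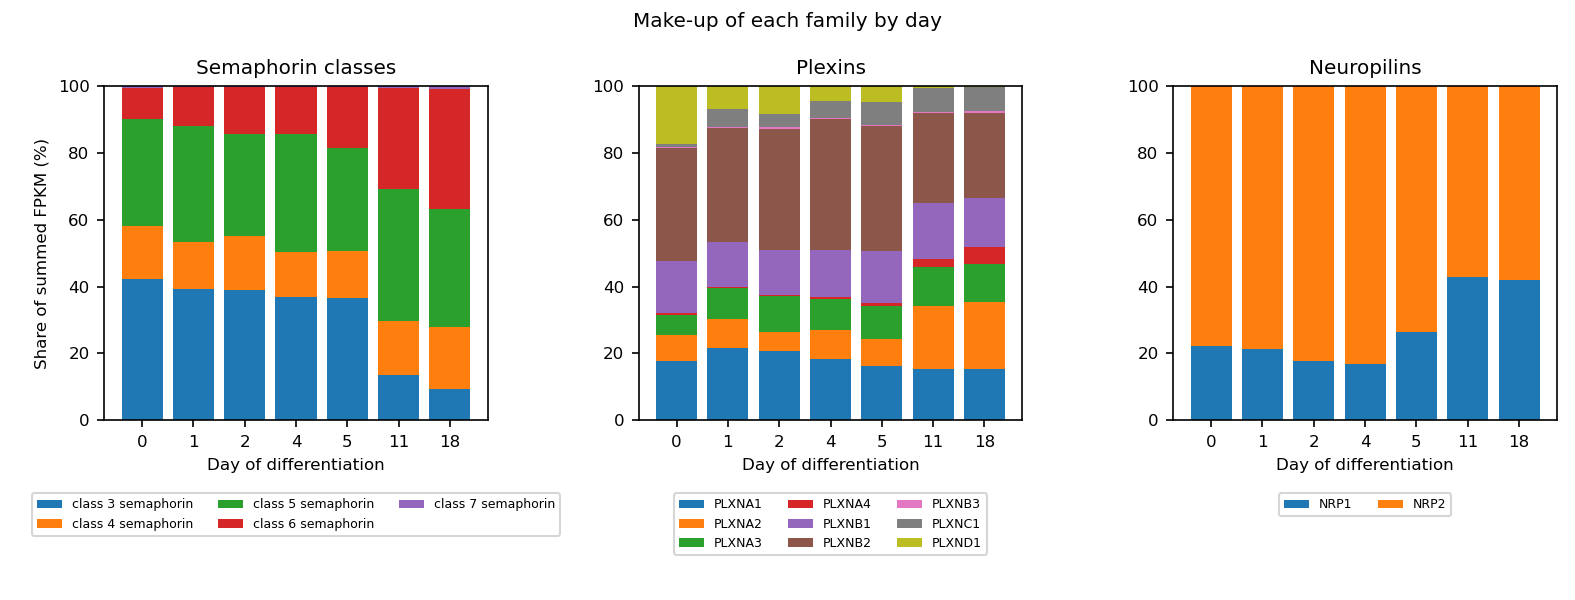
Stacked bars of the share (percent) of the summed FPKM of all semaphorins taken by each class, of all plexins by each plexin, and of the neuropilin pair by each gene, by day of differentiation, from 1 pooled value per gene and day. Class 3 semaphorins shrink from 42.3% to 9.42% while class 6 grows from 9.28% to 35.8%, and PLXND1 shrinks from 17.4% to 0.250% of the plexins.

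Of the receptors, the A plexins changed their order. PLXNA1 stood at 26.4, 28.2, 28.9, 23.4, 21.8, 21.9 and 21.2 FPKM, with a change of -0.31 as deposited and 0.29 recentred. PLXNA2 (chr1:208195590-208417665, minus strand) was at 11.2, 10.9, 7.64, 10.8, 10.9, 27.1 and 27.7 FPKM. PLXNA2 thus held near 11 FPKM apart from a dip on day 2 and rose by 1.30 in the step from day 5 to day 11. The ratio of PLXNA1 to PLXNA2 went from 2.34 on day 0 to 0.766 on day 18. PLXNA3 took 8.81, 12.2, 14.9, 12.0, 13.4, 16.4 and 15.5 FPKM, a change of 0.81 that was past 2-fold only when recentred (1.41). PLXNA4, a SEMA3A and SEMA6 receptor (chr7:131808092-132333447, minus strand), was at 0.824, 0.346, 0.520, 0.617, 1.32, 3.63 and 7.05 FPKM. After falling by 1.05 in the step to day 1, PLXNA4 was higher on every later day than on the one before, and its rise over the course was 2.95. A plexins made up 32.0% of the summed plexin FPKM on day 0 and 51.9% on day 18, and PLXNA4 went from 1.74% to 9.85% of the A plexins.

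The B plexins, receptors of class 4 semaphorins that couple to RhoA through PDZ-domain exchange factors, stayed within 2-fold as deposited. PLXNB2, which acts in progenitor proliferation and neural tube closure, stood at 49.8, 44.2, 50.1, 49.6, 50.4, 38.4 and 35.1 FPKM. PLXNB1 was at 23.2, 17.6, 18.8, 17.9, 20.7, 23.8 and 19.9 FPKM. Their recentred changes were 0.10 and 0.37, the former inside the yardstick and the latter past it. The record of PLXNB3 is merged with SRPK3, a protein kinase gene, so its values of 0.474, 0.420, 0.580, 0.430, 0.454, 0.530 and 1.01 FPKM cannot be assigned to either gene. It changed by 0.95 as deposited and 1.54 recentred.

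PLXNC1 and PLXND1 moved in opposite directions. PLXNC1, the SEMA7A receptor (chr12:94542499-94699224, plus strand), was at 1.29, 6.77, 5.40, 6.45, 9.23, 10.4 and 9.91 FPKM. Its rise of 2.85 lay mostly in the first step, 2.30 from day 0 to day 1, the same step in which its ligand SEMA7A fell. PLXND1 (chr3:129274056-129325582, minus strand), a receptor best known from endothelial cells, where SEMA3E acts through it, was at 25.7, 9.02, 11.7, 5.77, 6.28, 0.752 and 0.345 FPKM. PLXND1 fell by 5.86 (by 5.26 recentred), the largest change of the set. It lay at percentile 0.0851 of the 14107 coding records with a mean of at least 0.1 FPKM. It was past 2-fold in 3 steps, from day 0 to 1, from day 2 to 4 and from day 5 to 11, of which the last was the largest at -2.90. From day 11 to 18 it changed by a further -0.94 (-0.66 recentred). This was past the yardstick of 0.49 for its mean level. It was inside that of 0.79 for 0.1 to 1 FPKM, the range of both days. The ratio of its ligand SEMA3E to PLXND1 was 0.0301 on day 0 and 4.47 on day 18.

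Several markers of other cells were also lower on day 18, as PLXND1 was. The summed level of the 5 endothelial markers found was 11.6 FPKM on day 0, 5.00 FPKM on day 1 and 0.427 FPKM on day 18. Of the 4 tested, 3 fell (background 28.2%): EGFL7, TEK and CDH5, which were at 6.45, 2.50 and 2.34 FPKM on day 0. CLDN5, the other one tested, took another course, with 0.259 FPKM on day 0, 0.502 on day 1, 0.661 on day 11 and 0.135 on day 18. Only EGFL7 had a mean of at least 1 FPKM. VWF, below the limit for testing, did not exceed 0.0763 FPKM on any day. KDR, the VEGF receptor of endothelial cells and a partner of neuropilins, was at 23.8, 4.80, 6.49, 2.10, 3.84, 0.791 and 0.700 FPKM. The mesenchymal marker sum was 661, 379, 420, 257, 300, 111 and 58.8 FPKM. The part of such cells in the fall of PLXND1 was not tested. An antisense lincRNA record covers 60.7% of the exon bases of PLXND1 and went from 0.828 to 0.0140 FPKM.

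Of the co-receptors, NRP2 was the higher on every day, but by a narrowing margin. NRP2 (chr2:206547224-206662856, plus strand) stood at 42.4, 35.8, 40.7, 40.0, 30.5, 18.9 and 16.1 FPKM, a fall of 1.39 as deposited and a change of -0.79 recentred. NRP1 (chr10:33466420-33624006, minus strand) was at 12.2, 9.74, 8.70, 8.02, 11.0, 14.2 and 11.7 FPKM, lowest on day 4 and highest on day 11. The ratio of NRP2 to NRP1 was 3.47 on day 0, reached 4.98 on day 4 and was 1.37 on day 18. The ratio of SEMA3A to its co-receptor NRP1 went from 5.24 to 0.513. Neither neuropilin was at 0 or near it on any day.

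**Figure D3:**
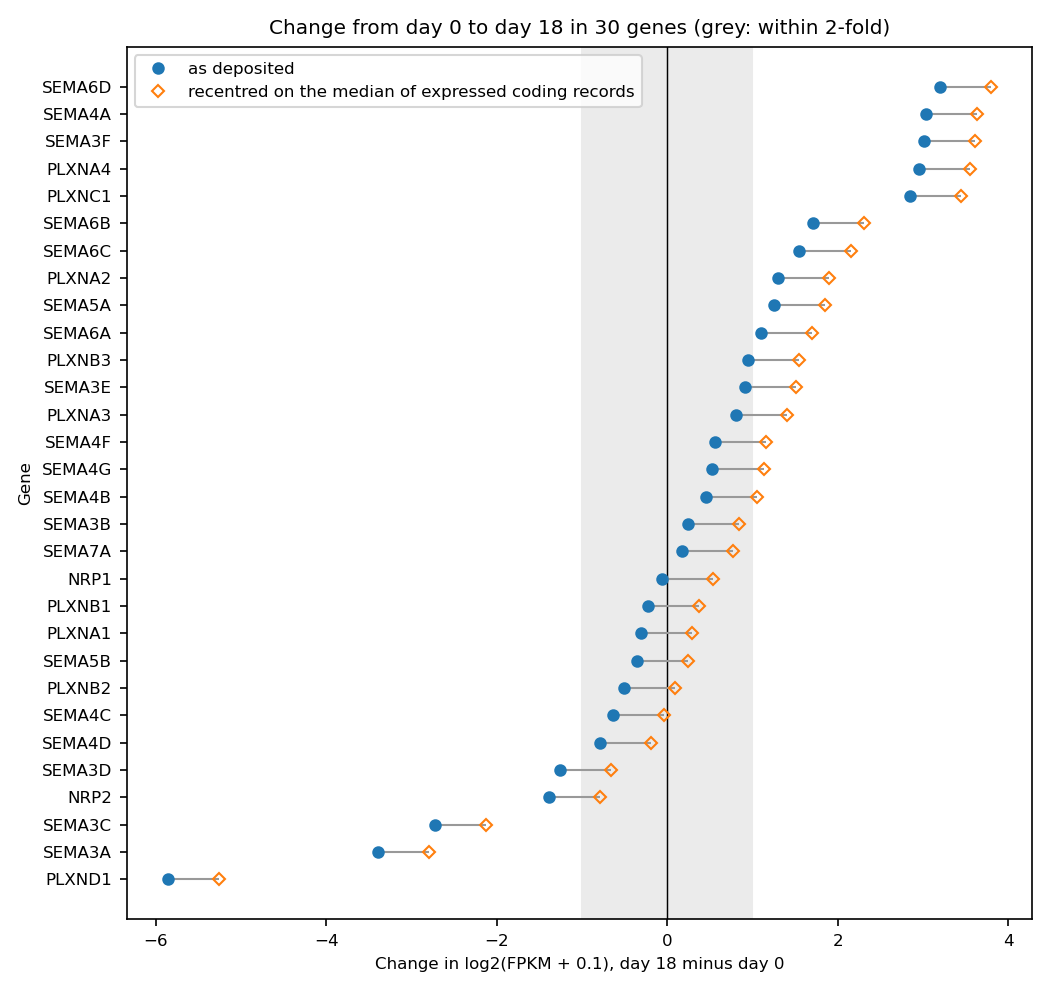
Change in log2(FPKM + 0.1) from day 0 to day 18 for each of the 30 genes with a mean of at least 0.1 FPKM, as deposited (circles) and recentred on the median coding record (diamonds); grey marks changes within 2-fold. PLXND1, SEMA3A and SEMA3C are past 2-fold lower and 10 genes past 2-fold higher on either scale, and for SEMA5B, PLXNA1, PLXNB1, PLXNB2 and NRP1 the sign depends on the scaling.

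As deposited, the changes were gathered in 2 of the 6 steps, together with a smaller number in the last. Recentred, the last step held more of them than the first, although it held fewer coding records past 2-fold in either direction. From day 0 to day 1, 5 of the 30 genes were past 2-fold against 8.29% of coding records: SEMA6B and PLXNC1 rose, and SEMA7A, PLXNA4 and PLXND1 fell. Recentred, PLXNA4 was at -0.94 and 4 genes were left, with 846 of 14107 coding records past 2-fold higher and 370 lower. From day 1 to day 2 none was (background 0.567%), and from day 2 to day 4 only PLXND1 was (background 1.29%). Across the replating, from day 4 to day 5, none was past 2-fold (background 0.539%), although PLXNA4 was when recentred, at 1.06. Of the coding records, 91 were then past 2-fold higher and 11 lower. From day 5 to day 11, 7 genes were past 2-fold (background 7.13%): SEMA5A, PLXNA2 and PLXNA4 rose, and SEMA3A, SEMA3C, SEMA3D and PLXND1 fell. Recentred, SEMA3D was at -0.99 and no longer past 2-fold, while SEMA3E (1.11) and SEMA6D (1.08) were. The recentred counts of coding records were 537 higher and 460 lower. From day 11 to day 18, 3 were (background 5.2%), with SEMA4A up and SEMA3A and SEMA3C down. Recentring changed this last step most, to 6 genes: SEMA3E, SEMA3F, SEMA4A, PLXNA4 and PLXNB3 higher and SEMA3C lower. Among the 14107 coding records, 466 were higher and 192 lower in it when recentred. Steps differ in length, from 1 day to 7 days, so their counts do not compare rates.

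**Figure D4:**
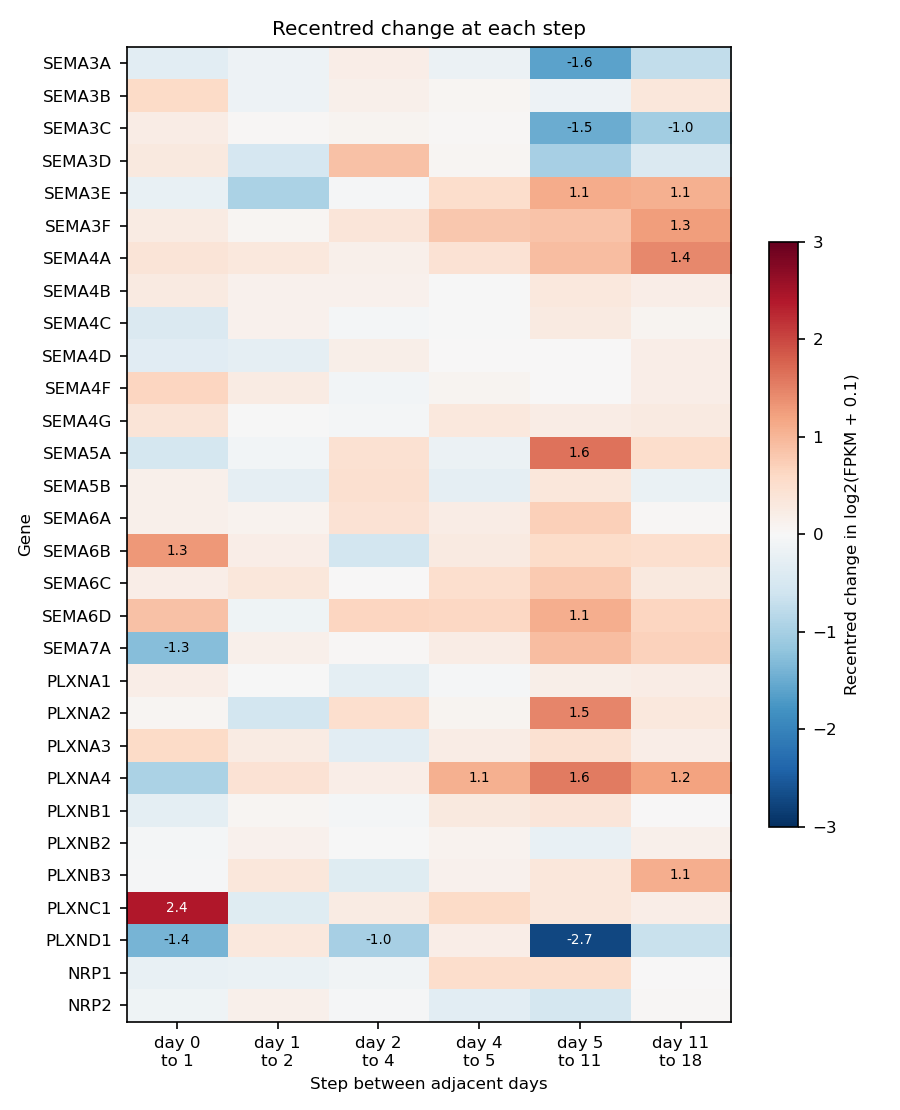
Recentred change in log2(FPKM + 0.1) of each of the 30 genes (rows) at each of the 6 steps between adjacent days (columns), with red for higher and blue for lower and values printed where the change is at least 1 in size. Strong colours lie in the steps from day 0 to 1 (PLXNC1 2.41, PLXND1 -1.39), from day 5 to 11 (PLXND1 -2.74, SEMA5A 1.63) and from day 11 to 18 (SEMA4A 1.43, SEMA3C -1.04). The steps from day 1 to 2 and from day 4 to 5 are paler, with PLXNA4 at 1.06 in the latter.

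Set against the yardstick, most whole-course changes were larger than the change between days 1 and 2. Recentred, the change from day 0 to day 18 was past the 95th percentile for 5 of 5 genes with a mean below 1 FPKM, 12 of 13 between 1 and 10 FPKM and 8 of 12 at 10 FPKM or more. The exceptions were SEMA4D in the middle band and SEMA4C, SEMA5B, PLXNA1 and PLXNB2 in the upper one. The whole course is far longer than the step behind the yardstick, and the share of all coding records past these limits was not taken. These counts therefore do not set the family apart from other genes.

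Promoter windows of 4 genes that moved were compared. RefSeq promoter windows (assembly GRCh38.p14) were found for 27 of the 31 genes and placed by exact match in hg19. SEMA3A, SEMA6A, SEMA6B and NRP1 had no entry in the table. The windows below, the 250 bases before the RefSeq start or the part of them outside the deposited record, belong to the 2 largest falls and the 2 largest rises from day 0 to day 18 among genes with a mean of at least 1 FPKM and a RefSeq start within 500 bases of the record's start, as 20 of the 27 had. Larger rises than that of SEMA6C (SEMA4A, SEMA3F, PLXNA4, PLXNC1 and SEMA6B) and the fall of SEMA3A are therefore not covered. They are shown so that genes that moved in each direction can be read side by side, with every GC box (GGGCGG, or CCGCCC on the other strand) in capitals. They lie at chr3:129325583-129325769 (PLXND1, minus strand), chr7:80551706-80551955 (SEMA3C, minus strand), chr15:47476036-47476285 (SEMA6D, plus strand) and chr1:151119108-151119357 (SEMA6C, minus strand), each read 5′ to 3′ on its gene's strand.
PLXND1: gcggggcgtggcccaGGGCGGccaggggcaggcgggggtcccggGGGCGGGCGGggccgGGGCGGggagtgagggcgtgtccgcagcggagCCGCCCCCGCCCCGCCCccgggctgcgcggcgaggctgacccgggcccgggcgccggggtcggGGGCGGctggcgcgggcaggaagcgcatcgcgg
SEMA3C: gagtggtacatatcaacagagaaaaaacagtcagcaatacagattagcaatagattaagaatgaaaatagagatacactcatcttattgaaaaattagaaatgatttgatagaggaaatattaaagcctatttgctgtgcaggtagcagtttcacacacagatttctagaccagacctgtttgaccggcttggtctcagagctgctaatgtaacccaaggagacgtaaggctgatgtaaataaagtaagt
SEMA6D: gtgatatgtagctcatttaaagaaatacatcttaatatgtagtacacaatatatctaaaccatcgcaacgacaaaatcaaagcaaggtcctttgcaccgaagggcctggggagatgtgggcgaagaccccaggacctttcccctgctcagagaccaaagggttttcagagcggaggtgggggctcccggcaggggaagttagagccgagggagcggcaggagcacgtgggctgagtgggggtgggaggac
SEMA6C: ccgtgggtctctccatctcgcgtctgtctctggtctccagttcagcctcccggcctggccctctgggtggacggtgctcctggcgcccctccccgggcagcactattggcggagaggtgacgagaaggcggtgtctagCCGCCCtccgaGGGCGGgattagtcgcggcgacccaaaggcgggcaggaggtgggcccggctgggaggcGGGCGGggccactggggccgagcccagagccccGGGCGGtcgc

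PLXND1 and SEMA3C, which both fell, differed in composition. The PLXND1 window was 87.7% GC with 30 CpG and 8 GC boxes over 187 bases, and the SEMA3C window was 36.4% GC with 2 CpG and no GC box over 250 bases. SEMA6D and SEMA6C, which both rose, were 53.6% and 73.2% GC, with 9 and 24 CpG and with 0 and 4 GC boxes. Over the full 250-base windows, a GC box was in 18 of the 27 promoters of the set, or 66.7%, and in 42.3% of all 27303 promoters. The median GC content was 64.4% in the set and 58% in all promoters, and the median CpG count was 13 and 11. The part of base composition in the shares of this and the other motifs was not tested. The other motifs were searched on both strands too, and each motif was counted on its own, overlapping hits included. The TATA box (TATAAA) was in none of the 27 and in 11.1% of all promoters. A neurogenic E box (CAGCTG) was in 2 of the 27 (SEMA4A and SEMA7A) and in 13.8% of all. The TEAD site (GGAATG) was in 2 (SEMA4A and PLXNB3) and in 11.9% of all, and the AP-1 site (TGANTCA) in 1 (PLXNC1) and in 6.6% of all. A match here is a run of letters and not evidence of binding, and 7 of the 27 RefSeq starts, those of PLXNC1 and PLXNA4 included, lay over 500 bases from the start of the deposited record. The records of PLXND1, SEMA3C, SEMA6D and SEMA6C held 3, 3, 8 and 5 transcripts, and the start used in these cells is not known.

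The signalling partners of the family, 57 listed genes of which 55 had a mean of at least 0.1 FPKM, moved much as the other coding records did. From day 0 to day 18, 8 rose and 18 fell, read against the backgrounds of 10.6% and 28.2%, and recentred the counts were 12 and 7. Their median change was -0.37, or 0.23 recentred, against -0.52 and 0.08 for all coding records. RAP1A and RAP1B share 1 record and are counted under both names.

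Within groups of partners the direction was mixed. Of the 5 collapsin response mediator proteins, which carry the SEMA3A signal to microtubules, 1 rose (background 10.6%). This was DPYSL3, from 79.0 to 220 FPKM. The other 4 stayed within 2-fold as deposited, with DPYSL5 at 122 and 111 FPKM. The MICAL oxidoreductases, which disassemble actin filaments below plexins, included MICAL2, which fell from 1.94 to 0.225 FPKM, and MICAL3, at 8.26 and 12.9 FPKM. Of 4 kinases tested, 1 rose (background 10.6%). CDK5R1, the neuronal activator of CDK5, went from 6.52 to 32.7 FPKM while CDK5 itself was at 13.1 and 10.1 FPKM. Of the 18 small GTPases and their regulators, 1 rose (background 10.6%) and 6 fell (background 28.2%). Recentred, 2 were past 2-fold higher (background 19.3%) and 1 lower (background 12.1%). RND3, which binds plexins and opposes RhoA, rose from 50.2 to 119 FPKM, and RRAS, a substrate of the plexin GTPase-activating domain, fell from 9.05 to 1.54 FPKM. Among the 5 actin regulators, the kinase PAK3 rose from 2.28 to 9.33 FPKM. The filament-severing protein cofilin, CFL1, fell from 671 to 311 FPKM, a change of -1.11, or -0.51 and within 2-fold when recentred.

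Surface partners showed the widest spread. CHL1, an adhesion molecule that joins neuropilins in SEMA3A signalling, rose from 0.458 to 14.4 FPKM, and ITGB1, the integrin chain through which SEMA7A acts, fell from 213 to 39.5 FPKM. ERBB2, which associates with B plexins, was at 18.7 and 17.7 FPKM, and it was the only receptor partner with a mean of at least 1 FPKM. VEGFA, a ligand of neuropilins, did not run in one direction, with 11.1, 38.2, 54.2, 38.3, 25.5, 6.00 and 38.7 FPKM on the 7 days. Its receptor KDR fell as given above. None of the 6 proteases that cut semaphorins or their partners rose and 4 fell (background 28.2%), PCSK6 the most, from 1.96 to 0.133 FPKM. Recentred, 2 of the 6 were past 2-fold lower (background 12.1%). ADAM17, with the smallest change, was at 18.8 and 12.7 FPKM, within 2-fold.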

How the data were processed

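Polyadenylated RNA of 20 cultures over 7 days was measured by RNA-Seq. According to the study's methods, the authors used TopHat2 for alignment to hg19, Cufflinks for assembly and Cuffdiff2 for expression; versions are not given in the sources used here, nor is counting by strand. The deposited FPKM values hold 1 value per record and day, and the number of columns of single samples was 0, so depth and culture spread are unknown and no test was run. The authors' deposited comparison columns (status, fold changes, test statistics, p and q values) were not used; that table gave only names, exons and coordinates. Changes were taken in log2(FPKM + 0.1) with Python 3.11.15, pandas 2.3.3 and numpy 2.4.6, with a mean of at least 0.1 FPKM and a fold of 2, and recentred on 11793 coding records with a mean of at least 1 FPKM. The script was tested on simulated data. The genes and lists were chosen with earlier results of these data known. Every gene reaching 1 FPKM on a day was given by day; of the partners, the largest rise and fall of each group with a mean of at least 1 FPKM were named, and of the marker lists counts and ranges were given, with the single markers named chosen after their values were seen. The oligodendrocyte markers summed to 35.4 FPKM on day 0 and 34.0 FPKM on day 18, of which 27.3 and 16.4 FPKM were a record that merges PDGFRA with FIP1L1. The astrocyte markers summed to 9.22 and 4.52 FPKM. The microglial markers summed to 3.20 and 0.853 FPKM, of which 2.99 and 0.834 FPKM were a record that merges CSF1R with PDGFRB.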

Additional observations from a re-analysis of the deposited data

How the results depend on the processing

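No paired analysis was possible because the deposited columns hold 1 pooled value per day, and for the same reason no culture could be left out. Of 82 recomputed counts, 58 stayed within 1.5 times the reported count. Taking each day against the sampled day before it, a fold of 4 left 1 gene past it for day 1, 0 for day 4, 1 for day 11 and 0 for day 18. Over the whole course a fold of 4 left 5 genes higher and 3 lower, and 3 partners higher and 6 lower. With a fold of 1.5 the counts were 1, 3, 2, 14 and 9 for the 5 steps after day 1. A pseudocount of 1 FPKM gave 2 genes at day 1, 0 at day 4 and 1 at day 18, and a pseudocount of 0.01 FPKM gave 1 at day 2, 1 at day 5 and 5 at day 18. Recentring gave 1 gene at day 5, 6 at day 18, 16 higher and 3 lower over the course, and 7 partners lower. These counts follow from the thresholds and the scaling. Of 186 recomputed whole-course changes of the set, 156 kept their direction and side of 2-fold, and 13 had another sign, 5 of them on recentring, with no reversal of a change past 2-fold. From day 1 instead of day 0, PLXNC1 changed by 0.54 and SEMA6B by 0.51, no longer past 2-fold, while SEMA3E (1.24), PLXNB3 (1.09) and SEMA7A (1.55) were now past it.

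The pooled values limit every statement to a description: the spread of cultures, against which a difference between days would be read, is unknown here. How many fragments lie behind levels below 1 FPKM, such as the lowest days of SEMA3E, SEMA3F, SEMA4A and PLXNA4, is not known. Reads shared with overlapping antisense records cannot be told apart.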

Other observations

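The catalogue holds lincRNA records named after a neighbouring gene of the set, and 8 of them had a mean of at least 1 FPKM. The highest was linc-SEMA6A-5, 2398703 bases from SEMA6A, at 415, 246, 217, 251, 260, 311 and 196 FPKM on the 7 days in order. Its change from day 0 to day 18 was -1.08 as deposited and -0.48 recentred, opposite in sign to that of SEMA6A. The record linc-SEMA4D-3, 947655 bases from SEMA4D, went from 13.7 to 3.14 FPKM, a change of -2.09, or -1.49 recentred. The record linc-SEMA3A-3, 744448 bases from SEMA3A, was lowest on day 0 at 0.825 FPKM and highest on day 2 at 2.31 FPKM, while SEMA3A was highest on day 0. Names in this catalogue give the neighbour and say nothing of function.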
